A study of Mus musculus with 4 samples.

Results

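Anti-PD-1 was compared with isotype IgG in the lungs of mice that carried Asf1a-knockout lung tumours. The comparison holds every cell of the 2 knockout libraries with at least 200 detected genes and at most 10% of its UMIs (unique molecular identifiers, each standing for 1 captured RNA molecule) from mitochondrial genes. That left 11700 of the 23730 cells that passed in all 4 libraries of the study. The IgG library held 6023 of them and the anti-PD-1 library 5677. Both libraries came from KP mouse lung tumour cells in which Asf1a had been knocked out. The cells were injected into a vein of B6 mice, whose own cells carried the gene. The treated tumours were given clone 29F.1A12 over 1 week, in 3 doses of 200 µg to each mouse, and the controls were given isotype IgG. The other 2 libraries, with unedited KP tumours (written WT below) under the same antibodies, serve only as a reference. The perfused lungs were digested whole and live cells were sorted with DAPI, so the libraries hold tumour, normal lung and immune cells together. Each condition was 1 library of 3′ counts, and the sources used here do not say whether mice were pooled or whether the knockout was 1 clone. No value below therefore has a replicate check, and every interval is a 95% interval of the counting error alone.

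PD-1, encoded by Pdcd1, is a receptor on activated T cells that dampens signalling when it binds PD-L1 (encoded by Cd274) on tumour or myeloid cells, and antibodies that block it are given to restore T cell activity. Activated T and NK cells release interferon-gamma, whose signal reaches GAS elements of promoters and induces IRF1. Type I interferon and IRF1 both act through ISRE elements. The targets include chemokines that attract T cells, GTPases of cell-autonomous defence and the MHC class I machinery that shows peptides to CD8 T cells. ASF1A is a chaperone of histones H3 and H4 that takes part in the assembly of nucleosomes.

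Promoter sequences are shown for 6 interferon-gamma targets whose levels are described in tumour cells and macrophages below. They come from RefSeq on GRCm38.p6 and were read from the 250 bases before each gene's start. Both strands were searched for GAS as TTCNNNGAA and for ISRE as GAAANNGAA. Each line gives 1 match with its flanks, 5′ to 3′ on the gene's strand, and the capitals mark the match, which for Gbp2 lies on the opposite strand and so reads as the reverse complement.
Irf1, GAS, chr11:53769912-53769944, plus strand: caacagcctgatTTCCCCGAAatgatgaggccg
Igtp, GAS, chr11:58199499-58199531, plus strand: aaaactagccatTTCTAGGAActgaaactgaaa
Serpina3g, GAS, chr12:104236102-104236134, plus strand: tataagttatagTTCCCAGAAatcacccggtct
Gbp2, ISRE, chr3:142620593-142620625, plus strand: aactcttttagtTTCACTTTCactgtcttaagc
Cxcl9, ISRE, chr5:92328234-92328266, minus strand: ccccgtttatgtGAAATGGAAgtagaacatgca
Cxcl10, ISRE, chr5:92349082-92349114, minus strand: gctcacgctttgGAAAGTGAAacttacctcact
Among the 22 genes of the interferon-gamma list, 15 were found in the promoter table, with 17 windows. The GAS letters were in 8 of these windows (47.06%) and the ISRE letters in 13 (76.47%), against 7.02% and 7.129% of all 32851 windows. Of the 20 windows of the type I interferon list, 3 held GAS (15%) and 10 held ISRE (50%). A match is a description of the letters and not a measured binding site. The Gbp and Irgm genes lie in clusters of close copies whose 3′ reads may have been divided between them, so their single values are uncertain.

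Cells were sorted into classes by clustering and marker genes, and every class name stands for "-like", as in T cell-like, although the suffix is dropped below. In each class the UMIs of all cells were summed and a gene's level was its UMIs scaled to the summed UMIs of that class (CPM). Values are written with the IgG library before the anti-PD-1 library, and a ratio is anti-PD-1 over IgG. A gene was counted as higher or lower when it differed by at least 1.5-fold, and a list median is the middle log2 ratio of its members with at least 30 UMIs over both libraries. Such counts have no test behind them. The measured members differ between classes, so a list's medians in different classes rest on different genes. Under other scalings the division into higher and lower moved by over 10 points in some classes. Under edgeR's TMM scaling it went from 107 higher and 436 lower to 202 and 308 in naive CD8 cells, from 606 and 242 to 419 and 456 in Retnlg-led neutrophils, and from 357 and 734 to 475 and 549 in monocytes. It went from 147 and 699 to 264 and 452 in plasma cells, from 385 and 830 to 510 and 678 in Gpnmb-led macrophages, and from 313 and 768 to 455 and 534 in type 2 dendritic cells. Under median-of-ratios scaling it went from 244 and 339 to 171 and 403 in Klra6-led T cells. Other such classes are given with their results.

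The targeted gene was low in tumour cells of both libraries. Asf1a had 28 against 14 UMIs there, or 9.72 against 7.14 CPM, a ratio of 0.734 (0.357 to 1.44). The WT tumour cells had 33.7 against 29.9 CPM. Whether the edit lies within the counted 3′ end is not stated in the sources used here, so remaining transcripts do not check the knockout. T cells, which come from the host, had Asf1a at 35.9 against 28.7 CPM.

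The knockout libraries had medians of 1247 and 1355 UMIs per cell, below the 2061 and 1905 of the WT libraries. Within most broad classes the anti-PD-1 library was the shallower one, with 894 against 771 UMIs in neutrophils. Gpnmb-led macrophages had 8559 against 6453, while B cells went the other way with 1039 against 1360. Some genes differed in the same direction in nearly every cell class of the knockout libraries. Over 9 broad classes, 5577 genes were measured in at least 5, and 20 were higher and 51 were lower in all classes or all but 1. Scgb1a1, the main secretory protein of airway club cells, was at 19.7 against 3129.6 CPM over the whole libraries and had a UMI in 2.33% against 44.0% of all cells. Transcripts of T and NK cells were also among the higher genes in classes that should lack them. Median log2 ratios over the classes were 1.56 for Ccl5, 1.49 for Nkg7, 1.58 for Gzma and 1.29 for Cd3d. Interferon-induced genes were in this set too, among them Gbp2 at 1.27 and Igtp at 0.88, each higher in 5 of 6 measured classes. The levels of Gbp2 and Igtp in single classes, given below, are therefore not particular to those classes. Lower in nearly all classes were the histone gene Hist1h1e at -2.39, the predicted gene Gm42418 at -3.04 and the mitochondrial gene mt-Atp8 at -1.02. The WT pair gave -0.27, 0.08 and 0.14 for these 3 genes, which were picked after their values were seen. Whether such transcripts were free RNA, and their part in the results below, was not tested. Cell barcodes shared between the knockout libraries were not counted here, and 104 and 82 cells were removed as likely doublets.

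**Figure D1:**
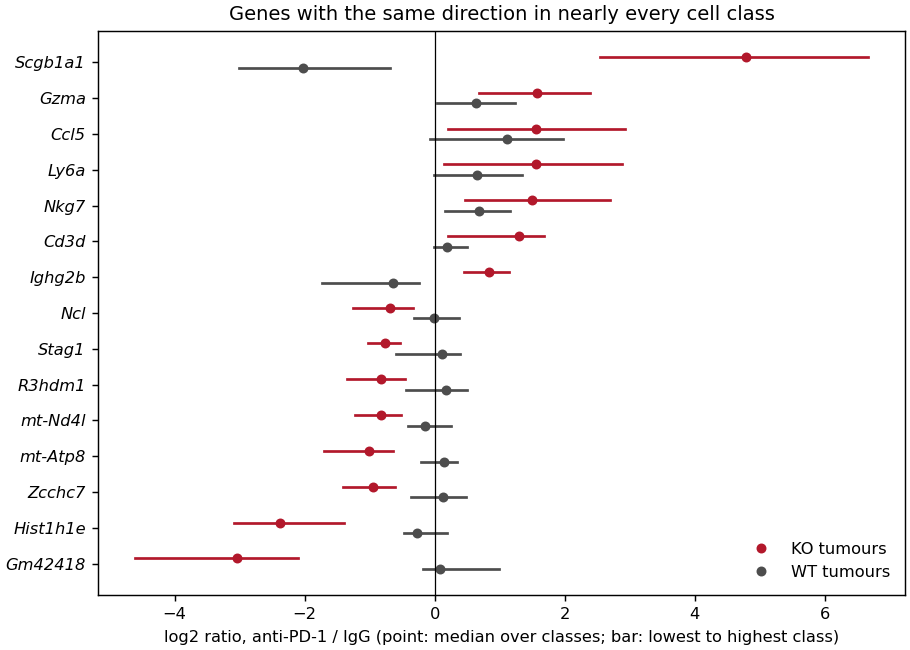
Log2 ratio of anti-PD-1 over IgG for genes that differed in the same direction in nearly every class. Points are medians over the measured classes and bars run from the lowest to the highest class, in red for KO and grey for WT tumours. Scgb1a1 lies on the right in KO and on the left in WT, while Hist1h1e and Gm42418 are far below 0 in KO and near 0 in WT.

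Antigen-experienced T cells made up a larger share of the lung cells with anti-PD-1, and naive T cells a smaller one. All T cells together were 966 cells (16.3%) against 1025 cells (18.3%), a ratio of 1.12 (1.04 to 1.22). Among cells other than neutrophils the ratio of all T cells was 0.974 (0.905 to 1.05). Antigen-experienced T cells, that is effector CD8, CD4, regulatory and cycling cells, were 5.71% against 13.7%. The ratio was 2.4 (2.13 to 2.72) in KO and 1.53 (1.41 to 1.66) in WT tumours. Naive T cells, of either lineage, were 435 against 152 cells with a ratio of 0.370 (0.308 to 0.443), where WT tumours gave 0.624 (0.557 to 0.70). Within these, cells whose lineage could not be named were 246 against 20 cells. With coarser clustering, at a resolution of 0.5, the ratio of all naive T cells was 0.138 (0.0994 to 0.193).

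Effector CD8, non-naive CD4 and cycling T cells were each larger shares. Effector CD8 T cells were 131 cells (2.21%) against 326 cells (5.83%), a ratio of 2.63 (2.16 to 3.21). In WT tumours this ratio was 2.30 (2.02 to 2.61). The CD4 class, without regulatory, cycling and naive cells, was 102 cells (1.72%) against 238 cells (4.25%). This was a ratio of 2.47 (1.96 to 3.10), where WT tumours gave 0.905 (0.767 to 1.07). Naive cells of unnamed lineage, 246 against 20, may include CD4 cells, so these ratios do not describe all CD4 cells. The KO ratio divided by the WT ratio was 2.73 (2.06 to 3.62) for CD4 and 1.14 (0.903 to 1.45) for effector CD8 cells. Cycling T cells were 21 against 61 cells, a ratio of 3.07 (1.87 to 5.04) against 0.999 (0.733 to 1.36) in WT. Regulatory T cells were 84 against 143 cells, a ratio of 1.80 (1.38 to 2.35). With coarser clustering, at a resolution of 0.5, the effector CD8 ratio was 1.28.

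Tumour cells were a smaller share with anti-PD-1. They were 231 cells (3.90%) against 140 cells (2.50%), a ratio of 0.641 (0.521 to 0.788), where WT tumours gave 0.872 (0.683 to 1.11). The KO ratio over the WT ratio was 0.735 (0.534 to 1.01), an interval that includes 1. Shares depend on digestion and on the other cells in the lung, so they do not measure tumour size.

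Among the myeloid cells, monocytes and dendritic cells were larger shares and neutrophils a smaller one. Monocytes were 328 cells (5.54%) against 533 cells (9.53%), a ratio of 1.72 (1.51 to 1.96). The 2 large macrophage clusters differed little in share, with 1.13 (0.964 to 1.32) for the Arg1-led and 0.977 (0.823 to 1.16) for the Gpnmb-led cells. Neutrophils were 2762 cells (46.7%) against 2156 cells (38.5%), a ratio of 0.826 (0.791 to 0.862). Their RNA content is low, with a median of 894 against 771 UMIs per cell, and the ratio was 0.530 when only cells with at least 1000 UMIs were kept. Type 2 dendritic cells had a ratio of 1.35 (1.13 to 1.63) and migratory dendritic cells 1.32 (1.03 to 1.71). Among cells other than neutrophils these were 1.17 (0.979 to 1.41) and 1.15 (0.891 to 1.48), so both intervals took in equal shares. Monocytes had 1.49 (1.31 to 1.70) there. Plasmacytoid dendritic cells, known as makers of type I interferon, were 32 against 66 cells.

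NK cells were a larger share of all cells and B cells a smaller one. NK cells were 288 cells (4.87%) against 352 cells (6.29%), a ratio of 1.29 (1.11 to 1.5), where WT tumours gave 1.01 (0.867 to 1.18). Among cells other than neutrophils the NK ratio in KO was 1.12 (0.968 to 1.30), an interval that includes 1. B cells were 238 cells (4.02%) against 150 cells (2.68%), a ratio of 0.667 (0.545 to 0.815). With only cells of at least 1000 UMIs it was 0.843 (0.656 to 1.08), an interval that includes 1. In WT tumours the B cell ratio was above 1, at 1.24 (1.09 to 1.40). Plasma cells, which secrete antibody, had a ratio of 0.736 (0.545 to 0.995).

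**Figure D2:**
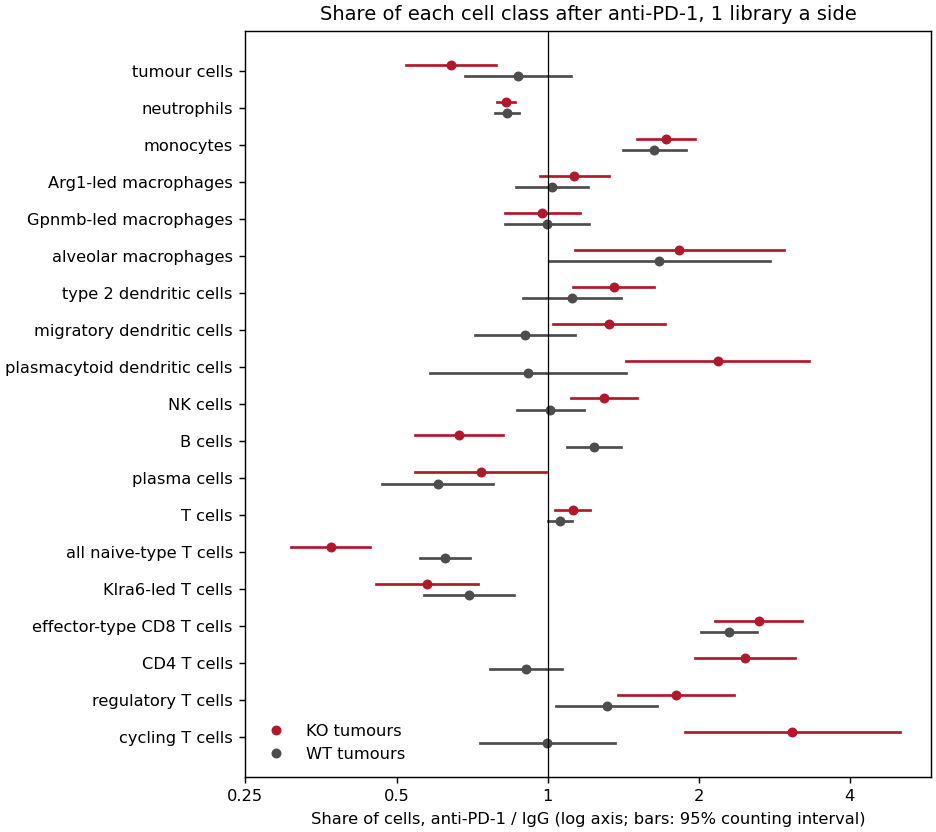
Share of each class among all cells, anti-PD-1 over IgG, on a log axis, with red for KO and grey for WT tumours. Bars are 95% counting intervals with 1 library a side, and the intervals of the 2 colours do not overlap for CD4, cycling T and B cells, among others.

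Interferon-gamma transcripts were higher with anti-PD-1 and CD4 T cells held the largest part of them in the anti-PD-1 library. Over the whole libraries Ifng had 3.60 against 16.2 CPM, from 60 against 249 UMIs. CD4 T cells held 5 against 114 UMIs, 8.33% against 45.8% of the library's total. Their level was 29.6 against 299 CPM, a ratio of 10.1 (4.20 to 31.7). In WT tumours CD4 cells had 178 against 149 CPM, and the KO log2 ratio exceeded the WT one by 3.60 (2.24 to 4.95). NK cells held 28 against 59 UMIs, 46.7% against 23.7% of the total, at a level of 54.3 against 94.5 CPM. Effector CD8 cells held 17 against 33 UMIs, and their level was 72.7 against 58.6 CPM, a ratio of 0.806 (0.436 to 1.54) whose interval includes 1. The number of these cells differed more than their Ifng level.

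A UMI of Ifng was seen in 5 of 102 against 46 of 238 cells of the CD4 class. Neutrophils, which should lack it, had 0 against 8 UMIs in 0 against 7 cells. Median depth was 1290.0 against 1352 UMIs in CD4 T cells and 894 against 771 in neutrophils. The CD4 class pools a Penk- and Tnfsf8-led cluster of 31 against 122 cells and a Cd40lg-led cluster of 71 against 116 cells, so different clusters hold most of it in the 2 libraries. Levels within the class therefore move with this mix, and that part was not tested.

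Cytotoxic genes were higher in T cells as a whole. The mix of naive and antigen-experienced cells differed as given above, and its part was not tested. Of the listed effectors 17 of 19 were measured, and of these 13 were higher and 0 lower, beside 10.3% and 9.31% of the 7795 genes tested. The list median was 0.97, and 0.50 in WT, where the median of all genes in the KO pair was 0.03. Gzmb, the granzyme that triggers apoptosis in target cells, was at 44.8 against 217 CPM, a ratio of 4.85 (3.81 to 6.22), and 83.4 against 203 CPM in WT. Ccl4 and Ccl5, chemokines of activated T cells, had 270.4 against 1340.5 CPM and 3184 against 9392 CPM. Prf1, the pore-forming protein that lets granzymes in, was at 16.6 against 32.7 CPM. Xcl1, which attracts cross-presenting dendritic cells, was at 470.0 against 428 CPM, less than 1.5-fold apart. For Gzma, at 94.0 against 492 CPM, a single cell held 41.8% against 26.5% of the UMIs.

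Few cytotoxic genes differed within effector CD8 cells, whereas most did within CD4 cells. In the effector CD8 class, 2 of 15 measured cytotoxic genes were higher, with a median of 0.17, beside 9.35% of all genes higher and 14.0% lower. Gzmb was at 64.2 against 403 CPM, a ratio of 6.28 (3.73 to 11.4), where WT cells had 200.2 against 288 CPM. Ccl5 was at 11102 against 24425 CPM. Gzma at 599 against 632 CPM and Prf1 at 42.8 against 49.7 CPM differed little. Eomes, a transcription factor of effector and memory CD8 cells, was at 119.8 against 53.3 CPM. Under edgeR's TMM scaling the effector CD8 genes past 1.5-fold were divided 424 higher to 321 lower, instead of 307 to 458.

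Within CD4 T cells 9 of 10 measured cytotoxic genes were higher, beside 12.1% of all genes, and 1 was lower, beside 10.2%. The list median was 2.02, and 1.10 in WT. Nkg7, a granule protein of killer cells, was at 722 against 2442 CPM. Gzmb was at 17.8 against 99.6 CPM, from 3 against 38 UMIs. Ccl5 was at 1159.9 against 3775 CPM, and Xcl1, the gene that was lower, at 272 against 144 CPM. Ccl4 was at 515 against 3510.5 CPM, but 1 cell held 89.7% against 22.5% of its UMIs. Cytotoxic transcripts such as Ccl5 and Nkg7 are also among those higher in nearly every class, and the part of that in these CD4 values was not tested.

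Receptors that restrain T cells were higher together with the cytotoxic genes. All 8 measured of the 9 listed inhibitory receptors were higher in T cells, beside 10.3% of all genes, with a median of 1.08 and 0.66 in WT. Naive cells were 45.0% against 14.8% of the T cells in KO, and the part of this mix in the pooled levels was not tested. Pdcd1, the target of the antibody, was at 52.0 against 131 CPM, a ratio of 2.52 (1.98 to 3.22). Lag3, a receptor for MHC class II, was at 53.6 against 209 CPM, and Ctla4, which competes for costimulatory ligands, at 164 against 353 CPM. Ctla4 was also higher in 5 of 6 measured broad classes, with a median log2 ratio of 1.51, so it is not particular to T cells. In effector CD8 cells Pdcd1 had a ratio of 1.47 (1.00 to 2.21) and in CD4 cells 1.87 (1.17 to 3.13), while regulatory T cells had 0.465 (0.237 to 0.901). The direction of Pdcd1 thus differed between the T cell classes in these libraries.

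Genes of naive and recirculating T cells were lower, and the naive cells themselves were fewer. Of 10 measured genes 9 were lower, beside 9.31% of all genes, with a median of -1.20 and -0.46 in WT. Tcf7 and Lef1, transcription factors of naive and memory cells, were at 276 against 123 CPM and 172 against 71.5 CPM. Il7r, a survival receptor, was at 567 against 249.8 CPM. Within CD4 cells, a class without the naive clusters, 4 of 6 measured genes were lower, beside 10.2% of all genes, among them Il7r at 663 against 283 CPM and Tcf7 at 213 against 94.3 CPM. In naive CD8 cells 1 of 10 measured genes of the list were lower and 0 higher, beside 16.5% and 4.06% of all genes. In Klra6-led T cells, a class with natural killer receptors, the counts were 6 lower and 1 higher of 9, beside 13.5% and 9.70%. In T cells as a whole, fewer naive cells and less of these RNAs per cell cannot be told apart.

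Further genes that differed most in T cells included receptors and cytokines. Ifngr2, a chain of the interferon-gamma receptor, was at 35.4 against 8.56 CPM, a ratio of 0.242 (0.133 to 0.418), and the WT ratio was 0.697. Igfbp4, typical of naive T cells, was at 206 against 48.8 CPM. Both are leading genes of the naive cluster of unnamed lineage, which held 246 against 20 cells, and their levels in T cells as a whole cannot be told apart from the share of that cluster. Il10, an anti-inflammatory cytokine, was at 2.21 against 31.7 CPM, from 4 against 63 UMIs. CD4 cells held 1 against 29 UMIs and regulatory T cells 3 against 25 UMIs, while plasma cells, its main source with IgG, had 37 against 13 UMIs. Areg, an EGF-receptor ligand linked to tissue repair, was at 26.5 against 115 CPM in T cells. It was higher in 4 of 5 measured broad classes, with a median log2 ratio of 1.61, so its level is not particular to T cells.

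Regulatory T cells were a larger share, and the median of their defining genes was near 0. The regulatory list had a median of 0.01, with 1 higher and 1 lower of 7 measured, beside 9.43% and 11.6% of all genes. Foxp3, the lineage's master transcription factor, was at 491 against 272 CPM. Areg, which was higher in most broad classes, was at 404 against 1194 CPM, a ratio of 2.96 (2.07 to 4.33), where WT cells had 597 against 548 CPM. Lag3 was at 164 against 480.1 CPM, and Penk, which encodes an opioid precursor, at 76.4 against 337 CPM. Il1rl1, the receptor for IL-33, was at 393 against 90.8 CPM. Regulatory cells were 84 and 143, so each of these levels rests on few cells, and TMM scaling divided the genes past 1.5-fold 250 higher to 76 lower instead of 123 to 151.

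**Figure D3:**
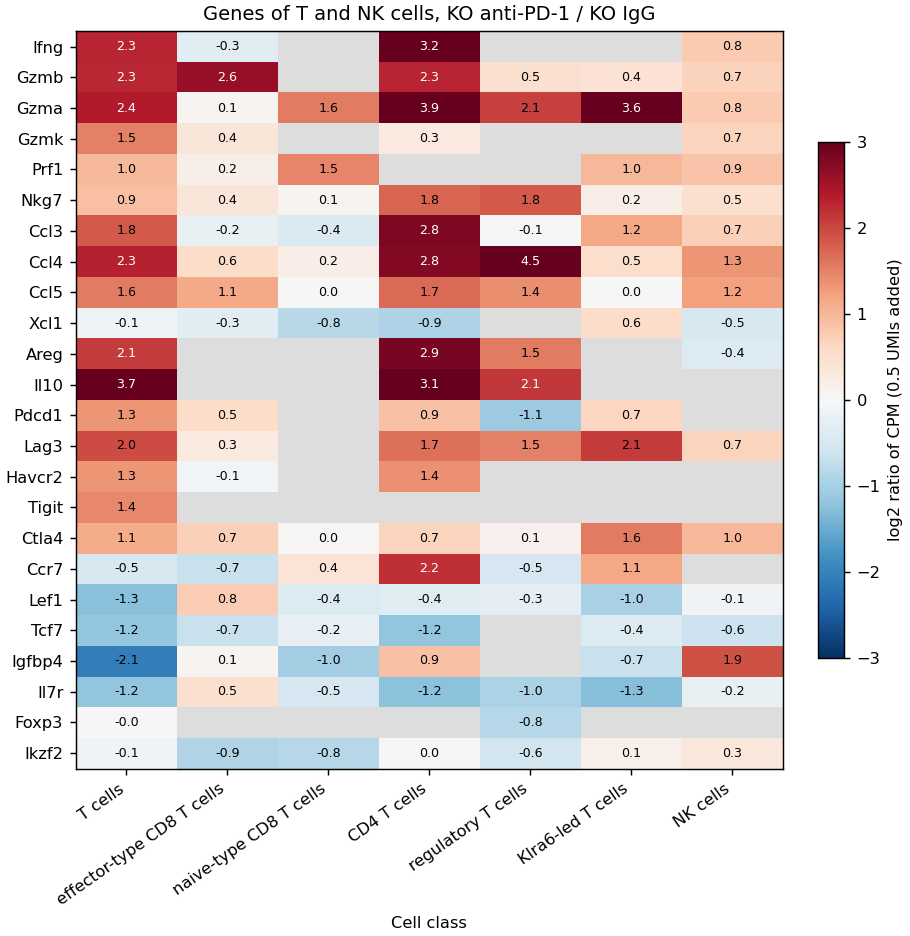
Log2 ratio of KO anti-PD-1 over KO IgG for genes of T and NK cells, with a class in each column and grey where fewer than 10 UMIs were counted. Red is higher with anti-PD-1, as for Ifng in CD4 cells, and blue lower, as for Tcf7 and Lef1 in the column of T cells as a whole.

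NK cells had more transcripts of their killing machinery. Of 17 measured cytotoxic genes 8 were higher and 1 lower, beside 5.88% and 14.0% of all genes, and the median was 0.47. Prf1 was at 206 against 373 CPM, a ratio of 1.82 (1.44 to 2.31). Gzmb was at 452 against 732 CPM, and Ccl4 and Ccl5 at 861 against 2154 CPM and 8408 against 19881 CPM. Ifng had 54.3 against 94.5 CPM, a ratio of 1.74 (1.09 to 2.83). Xcl1 was at 1735 against 1241 CPM, and Klrk1, the activating receptor NKG2D, at 756 against 572 CPM. The interferon-gamma list was not higher, with a median of -0.24 and none of 7 measured genes past 1.5-fold in either direction. The class pools an Xcl1- and Gzmc-led cluster of 206 against 186 cells and a Gzma- and Prf1-led cluster of 82 against 166 cells. Levels such as those of Prf1 and Xcl1 move with this mix. T cell marker genes summed to 357 against 625 CPM in this class. The part of the mix and of the T cell transcripts in these levels was not tested. TMM scaling divided the NK genes past 1.5-fold 351 higher to 476 lower instead of 256 to 607.

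Interferon-response genes were higher in macrophages with anti-PD-1. In monocytes and macrophages together, 16 of 17 measured interferon-gamma targets were higher and 0 lower, beside 4.66% and 9.79% of the 9316 genes tested. The list median was 0.92, with 0.80 in WT and -0.07 for all genes. Of 22 type I interferon targets 12 were higher and 0 lower, beside the same 4.66% and 9.79%, with a median of 0.64. The genes past 1.5-fold were 434 higher and 912 lower, and 544 higher to 710 lower under TMM scaling. T cell markers in this class summed to 51.7 against 156 CPM, and their part was not tested.

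The macrophage clusters had larger interferon medians than the monocytes. In Arg1-led macrophages 11 of 13 measured interferon-gamma targets were higher, beside 6.50% of all genes, and 0 lower, beside 11.8%. In Gpnmb-led macrophages 7 of 10 were higher and 1 lower, beside 5.25% and 11.3%. In monocytes 2 of 8 were higher and 0 lower, beside 5.27% and 10.8%. The list medians were 1.14, 1.11 and 0.22 in that order, so monocytes stood closest to 0. These rest on 13, 10 and 8 measured genes, and no common set of genes was compared. The promoter letters shown above belong to several of these genes. In Arg1-led macrophages Gbp2, an interferon-induced GTPase, was at 44.7 against 172 CPM, a ratio of 3.84 (2.89 to 5.16). Serpina3g, a protease inhibitor, was at 5.87 against 40.6 CPM. Cxcl9 and Cxcl10 bind CXCR3 on activated T cells and were at 104 against 192 CPM and 118 against 260.3 CPM. A UMI of Cxcl9 was seen in 19 against 52 of these cells and of Cxcl10 in 12 against 34. In Gpnmb-led macrophages Cxcl10 went the other way, with 59 against 28 UMIs in 5 against 10 cells. Tap1, a chain of the peptide transporter for MHC class I, was at 30.1 against 94.5 CPM. Arg1-led macrophages were the main source of Cxcl9 in both libraries, with 142 against 289 UMIs. Type 2 dendritic cells had 50 against 102 UMIs and Gpnmb-led macrophages 58 against 95 UMIs.

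Lists of genes often used for macrophage states had medians near 0. The M1-type list had a median of -0.22 and the M2-type list -0.09, with 1 higher and 3 lower of 11 measured genes of the latter, beside 4.66% and 9.79% of all genes. Arg1, which consumes arginine, was at 631 against 480.4 CPM, and Mrc1, a scavenging receptor, at 105 against 62.2 CPM. Il1b, an inflammatory cytokine, was at 1883 against 1926 CPM. Cd40, which receives help from CD4 T cells, was at 11.4 against 30.5 CPM. The list of lipid-associated and complement genes had a median of -0.40, where 4 of 13 were lower and 0 higher, beside 9.79% and 4.66% of all genes. Spp1, encoding osteopontin, was at 1827 against 853 CPM with 1103 against 1160.3 CPM in WT, and Gpnmb, a glycoprotein of lipid-laden cells, at 1575 against 910.0 CPM. Gpnmb-led cells were 29.9% against 22.3% of the pooled class and monocytes 37.7% against 49.6%. Within Gpnmb-led macrophages Spp1 was at 2803 against 1350.2 CPM, Gpnmb at 3432 against 2782 CPM and Mrc1 at 96.6 against 71.7 CPM. The part of the cluster mix in the pooled levels was not tested. Pf4, a chemokine of platelets and tissue macrophages, was at 511 against 125 CPM in Arg1-led cells. The 4 platelet markers, Pf4 among them, summed to 441 against 159 CPM in WT Arg1-led cells. In Gpnmb-led cells of the knockout pair the sum went the other way, at 53.1 against 144 CPM. Lilrb4a, an inhibitory receptor with close copies, was at 51.9 against 10.6 CPM, and this was among the genes low in most myeloid classes.

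Type 2 dendritic cells had a smaller interferon-gamma median than the macrophage clusters. It was 0.24, and 3 of 12 measured genes were higher and 1 lower, beside 5.14% and 12.6%. Gbp2 was at 23.5 against 79.0 CPM, whereas Cxcl10 was at 34.8 against 14.0 CPM. Ccl17, a chemokine that attracts CCR4-bearing T cells, was at 5419 against 2530.3 CPM. Migratory dendritic cells had Il12b, a subunit of the cytokine that drives interferon-gamma production, at 92.2 against 254 CPM, a ratio of 2.76 (1.95 to 3.97). A single cell held 36.4% against 34.8% of its UMIs, and WT cells gave the opposite order, 307 against 151 CPM. An Il12b-led cluster made up 25 of the 103 migratory dendritic cells with IgG and 54 of the 129 with anti-PD-1, and the part of this mix in the Il12b level was not tested. Cd40 was at 107 against 195 CPM. Of the 12 maturation genes, 2 were higher and 0 lower in this class, beside 8.85% and 12.3% of all genes.

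Neutrophils had higher interferon and MHC class I transcripts. Of 12 measured interferon-gamma targets 8 were higher and 0 lower, beside 8.39% and 6.51% of the 7131 genes tested. The medians were 0.68 for this list, 0.52 for type I interferon and 0.54 for MHC class I presentation, beside 0.54, 0.34 and 0.45 in WT. Irf1, a transcription factor induced by interferon-gamma, was at 85.3 against 159.5 CPM, a ratio of 1.87 (1.57 to 2.23). The interferon-gamma median was 0.40 when cells were thinned to 1000 UMIs, which keeps only the 941 of 2762 and 467 of 2156 neutrophils that reach that depth, so both the depth and the cells differ. T cell marker genes in neutrophils summed to 135 against 451 CPM, and their part was not tested.

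In summed counts the P2rx7-led neutrophil cluster had a higher interferon median than neutrophils as a whole. Its leading genes include Gbp5, Gbp2, Cxcl10 and Cxcl9 of the interferon-gamma list, so the class is not independent of the genes counted in it. All 7 measured interferon-gamma genes were higher there, and none lower, beside 12.3% and 9.68% of all genes, with a median of 1.26 and 0.57 in WT. All 13 measured MHC class I genes were higher as well, beside the same 12.3%. Psmb9, a subunit of the immunoproteasome that makes peptides for MHC class I, was at 76.1 against 408 CPM, a ratio of 5.36 (3.41 to 8.65). Isg15, a ubiquitin-like interferon product, was at 493 against 1674 CPM, and Vegfa, a growth factor of blood vessels, at 158 against 37.6 CPM. The Retnlg-led cluster had 4 of 8 higher and 0 lower, beside 13% and 5.19%, and the Adamdec1-led cluster 6 of 7 and 0, beside 7.89% and 9.03%. With P2rx7-led cells thinned to 1000 UMIs, which keeps 116 of 363 and 32 of 226 cells, the interferon-gamma median was 0.27. This was below the 0.40 of all neutrophils after thinning. TMM scaling divided the genes past 1.5-fold in the cluster 151 higher to 327 lower instead of 254 to 200.

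Some genes linked to tumour-associated neutrophils were lower. Of 12 such genes 4 were lower and 0 higher, beside 6.51% and 8.39% of all genes, with a median of -0.32. Siglecf, a lectin found on lung tumour neutrophils, was at 146 against 75.5 CPM. Ccl3 and Cxcl3, chemokines for myeloid cells, were at 1502 against 778 CPM and 878 against 489 CPM, and Csf1, a growth factor of macrophages, at 214 against 139 CPM. The mix of neutrophil clusters differed too. Retnlg-led cells were 1312 against 1220, or 47.5% against 56.6% of neutrophils. Adamdec1-led cells were 987 against 666 (35.7% against 30.9%) and P2rx7-led cells 363 against 226 (13.1% against 10.5%). Siglecf is a leading gene of the Adamdec1-led cluster, and the part of this mix in the pooled levels was not tested.

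**Figure D4:**
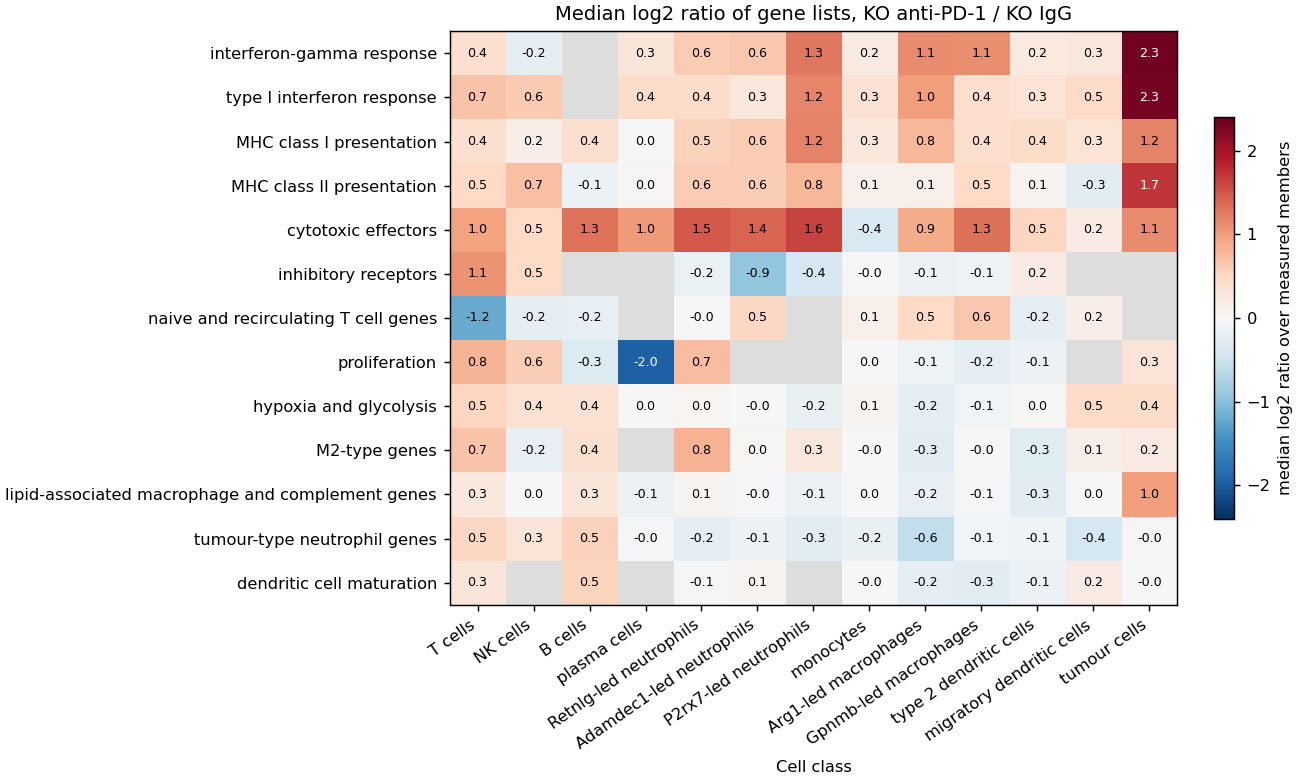
Median log2 ratio of KO anti-PD-1 over KO IgG for 13 gene lists (rows) in 13 cell classes (columns), grey where too few members were measured. Red cells of the interferon and MHC class I rows stand in macrophages, P2rx7-led neutrophils and tumour cells, and the naive row is blue in T cells.

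Tumour cells of the anti-PD-1 library had higher levels of interferon-gamma targets than those of the IgG library. Of the listed genes 12 of 22 were measured, and of these 11 were higher and 0 lower, beside 8.40% and 16.2% of the 8645 genes tested. The list median was 2.31, and 1.31 in WT, while all genes of the KO pair had a median of -0.10. The genes past 1.5-fold were 726 higher and 1404 lower, and 901 to 1090 under median-of-ratios scaling. Gbp2 was at 11.8 against 95.4 CPM, a ratio of 8.08 (5.58 to 12), and WT cells had 27.5 against 106 CPM. Irf1 was at 17.7 against 36.7 CPM. Igtp, a GTPase of the Irgm family, was at 6.95 against 38.3 CPM. Cxcl9 had 0 against 32 UMIs, in 0 against 15 cells, and Cxcl10 was at 6.25 against 33.2 CPM. The promoters of these 5 genes are shown above, beside that of Serpina3g. Ubd, a ubiquitin-like protein induced by interferon-gamma, was at 2.78 against 40.8 CPM. Socs1, which restrains the pathway, was at 4.86 against 15.8 CPM. Of the 7 epithelial tumour markers Cldn7 was at 0 in both libraries, and the class summed them to 7009 against 9968 CPM, its macrophage markers to 261 against 929 CPM and its T cell markers to 43.1 against 81.6 CPM.

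A sub-cluster seen in the anti-PD-1 library alone of the knockout pair held many of these transcripts. Its cells, led by Lypd8, Lgals4 and Fabp2, genes known from the intestine, numbered 0 against 17 in the knockout libraries, and 18 against 17 in WT. Without them the interferon-gamma median was 1.49. Gbp2 then had a ratio of 4.20 and Irf1 1.72. The type I interferon list, whose median was 2.29, dropped to 0.75 without them. Ifit3 went from a ratio of 44.3 to 1.22 and Ifit1 from 17.6 to 1.37, so the difference in these antiviral genes lay mostly in those cells. Nts-led tumour cells, the largest sub-cluster with IgG, were 84 against 25, and Gc-led cells were 38 against 27. The part of this mix in the tumour values was not tested.

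MHC class I genes were higher too. Of 12 measured genes 11 were higher and 0 lower, beside 8.40% and 16.2% of all genes, with a median of 1.18, and 0.88 without the Lypd8-led cells. B2m, the light chain of MHC class I, was at 950.1 against 3471 CPM, a ratio of 3.65 (3.49 to 3.82). H2-K1 and H2-D1, the classical heavy chains, were at 63.9 against 296 CPM and 274 against 1299 CPM, and the latter had 587 against 932 CPM in WT. The IgG library thus had the lowest level of H2-K1 of the 4, as WT cells had 236 against 389 CPM. Psmb9 was at 1.39 against 14.3 CPM and Tap2 at 2.43 against 14.8 CPM. Tap1, with 7 against 6 UMIs, was below the 30 UMIs needed to be counted. Without the Lypd8-led cells H2-K1 still had a ratio of 4.45 and B2m of 3.29.

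MHC class II genes are usually confined to professional antigen-presenting cells and some epithelia. All 7 measured were higher in tumour cells, beside 8.40% of all genes, with a median of 1.72. Cd74, the invariant chain, was at 129 against 584 CPM, with 8.36% against 28.7% of its UMIs in 1 cell. The median was 0.90 after thinning and 0.62 as a mean per cell. It was 0.56 with 10% of UMIs removed as free RNA and 1.30 without 2 sub-clusters led by immune genes. Macrophage markers were higher alongside, as given above, and their part in these values was not tested.

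**Figure D5:**
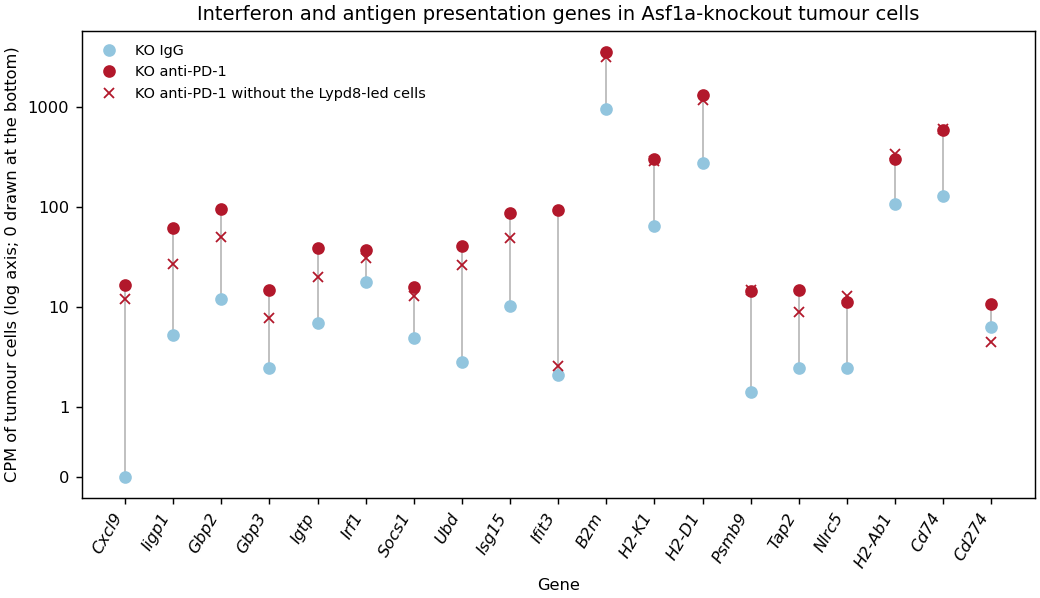
CPM of interferon and antigen presentation genes in KO tumour cells on a log axis, with blue points for IgG and red points for anti-PD-1. Crosses give anti-PD-1 without the Lypd8-led cells, and Ifit3 is where the cross drops back toward the IgG level.

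Lists of ligands and chemokines by which tumour cells act on immune cells had smaller medians in the summed counts than the interferon and MHC lists. The list of myeloid-attracting chemokines had a median of 0.65, and -0.033 with at least 100 UMIs per gene. Cd274 was at 6.25 against 10.7 CPM, a ratio of 1.71 (0.869 to 3.41), and 0.71 without the Lypd8-led cells. Of 7 measured checkpoint ligands 4 were higher and 0 lower, beside 8.40% and 16.2% of all genes, with a median of 0.60. Pvr, a ligand of TIGIT, was at 18.8 against 18.4 CPM, and Nectin2, another, at 11.8 against 26.5 CPM. Over the whole libraries Cd274 was at 50.7 against 42.9 CPM, and its sources included monocytes and macrophages with 261 against 200 UMIs, neutrophils with 273 against 166 UMIs, migratory dendritic cells with 117 against 102 UMIs and type 2 dendritic cells with 68 against 73 UMIs. Csf2, the myeloid growth factor GM-CSF, had 33 against 21 UMIs in tumour cells, or 11.5 against 10.7 CPM. Cxcl1, which attracts neutrophils, was at 45.5 against 91.8 CPM, while Cxcl2 and Cxcl5, which do the same, were at 205 against 152 CPM and 40.3 against 39.3 CPM.

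Histone chaperone genes had a median near 0. Of 11 measured histone chaperone genes 1 was higher and 1 lower, beside 8.40% and 16.2% of all genes, with a median of -0.04. Asf1b, the paralog of Asf1a, was at 11.1 against 25 CPM, and Hira, which deposits the histone variant H3.3, at 14.9 against 17.9 CPM. Nasp, a chaperone of H3 and H4, was at 86.1 against 77.5 CPM. Atrx, which works with DAXX on heterochromatin, was at 118 against 50 CPM, and it was also at 143 against 77.6 CPM in neutrophils. Hist1h1b, a linker histone gene, was at 77.1 against 13.8 CPM, and, as with Hist1h1e above, lower values were not limited to tumour cells, with 15.1 against 3.99 CPM in monocytes and macrophages.

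Genes of metabolism and division were also counted in tumour cells, beside 8.40% higher and 16.2% lower of all genes. Of 16 measured hypoxia and glycolysis genes 5 were higher and 1 lower. Ldha, which turns pyruvate into lactate, was at 908 against 1451 CPM, and Gapdh, a glycolytic enzyme, at 3012 against 4808 CPM. Without the Lypd8-led cells the ratios of these genes were 1.34 and 1.31, below 1.5-fold. Of 26 proliferation genes 8 were higher and 2 lower, with a median of 0.31. Ube2c and Cdk1, both of mitosis, were at 70.1 against 204 CPM and 40.6 against 88.7 CPM, while Mki67, the marker of cycling cells, was at 50 against 27.5 CPM. Gstt1, a detoxifying enzyme, was at 1.74 against 28.1 CPM, a ratio of 16.2 that was 2.56 from 5 against 7 UMIs without the Lypd8-led cells. Prl2c2, a proliferin, was at 72.6 against 18.4 CPM.

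Plasma cells had lower levels of cell cycle genes. Of 10 measured proliferation genes 8 were lower and 0 higher, beside 24.2% and 5.09% of all genes, and the median was -1.97, where the median of all plasma cell genes was -0.26. Top2a, which untangles DNA before division, was at 96.1 against 11.8 CPM, and Mki67 at 102 against 17.7 CPM. Hist1h1b had 130 against 0 UMIs, which made it at least 26.3-fold lower against a floor of 3 counts. It was also lower in tumour cells and in monocytes and macrophages, as given above, so this is not particular to plasma cells. In WT the list median was -0.18. In B cells 4 of 13 measured MHC class I genes were higher and 0 lower, beside 9.62% and 12.2% of all genes. The class had more T cell and neutrophil transcripts, at 273 against 641 CPM and 2523 against 5250.4 CPM, so their leading genes, such as Ccl5 at 315 against 1675 CPM, moved with those of other classes, and that part was not tested.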

How the data were processed

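The deposited files hold, per the file headers, matrices of UMI counts per gene and cell from Cell Ranger 3.0.0, made by the authors without further scaling. The submitters' processing notes name the genome build hg19, although all 31053 gene IDs are mouse Ensembl IDs, so the build was not established. Libraries were 10x 3′ v2.

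Cells with at least 200 genes and at most 10% mitochondrial UMIs were kept, 5745 and 6285 of them in the WT libraries. Cells with a doublet score above 0.25 were removed, at an expected rate of 0.05, since the automatic threshold marked 3 and 0 cells in the knockout libraries. The 4 libraries were clustered together with scanpy 1.11.5 and igraph 0.11.9 (2000 variable genes, 30 components, 15 neighbours, resolution 1) on python 3.11.15. Classes were named from 30 marker lists. The naming rule was written in several versions with the clusters and their cells per library in view. Shares have exact binomial and gene ratios exact conditional Poisson intervals (scipy 1.17.1), and ratios of shares log-normal ones. Genes were compared in classes with at least 50 cells in each knockout library, and 0.5 UMIs were added before taking log2. The fold and count code was checked on simulated data. TMM factors came from edgeR 4.0.16 in R 4.3.3, with no test.

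The genes named were the 6 highest and 6 lowest in a class with at least 50 UMIs, seen in at least 10 cells, with at most 25% of UMIs in 1 cell, plus members of 24 gene lists and Asf1a, Pdcd1, Cd274, Ifng and Csf2. Members and lists were chosen with earlier results of these data known. Alternatives were other filters, clusterings, scalings, minimum counts, thinning to 1000 UMIs, leaving out the cell with most UMIs of a gene, and removing 10% of UMIs as free RNA. Barcodes shared between libraries were not analysed here, and some list members are not reported here.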

Additional observations from a re-analysis of the deposited data

Results flagged for a closer look

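Several values had opposite directions in the knockout and WT pairs, and none of these differences was tested, since each condition was 1 library. The B cell share ratio was 0.667 in knockout and 1.24 in WT tumours. Gdf15, a stress-induced cytokine, had a log2 ratio of -1.37 in knockout neutrophils and 1.27 in WT neutrophils, from 45 against 12 UMIs in the knockout pair.

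Scgb1a1 had the opposite direction in many classes. Its log2 ratio in knockout and WT was 4.43 and -1.68 in T cells, 5.19 and -2.91 in NK cells, 6.66 and -2.73 in plasma cells and 5.48 and -1.27 in neutrophils. It was 2.55 and -1.04 in monocytes and macrophages, 4.69 and -2.92 in type 2 dendritic cells, 4.80 and -3.00 in migratory dendritic cells and 3.77 and -2.03 in tumour cells. Over whole libraries the gene was at 681 CPM in WT IgG, 121 CPM in WT anti-PD-1, 19.7 CPM in knockout IgG and 3130 CPM in knockout anti-PD-1.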

How the results depend on the processing

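The 12 shares kept their direction in all 96 recalculations with other filters and clusterings. The 12 leading list medians did so in all 104, but several sizes moved. Shares among cells other than neutrophils were not part of the 96. There T cells changed direction, with a ratio of 0.974 (0.905 to 1.05). NK cells had 1.12 (0.968 to 1.30) and dendritic cells 1.11 (0.970 to 1.27). No paired analysis was possible because each condition was 1 library, and for the same reason leaving out a library left nothing to compare. Sub-clusters of tumour cells were left out after the data had been seen.

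The neutrophil ratio was 0.567 with at least 500 genes per cell, 0.530 with at least 1000 UMIs and 0.434 with a minimum scaled to depth, which gave 1.49 for monocytes and macrophages. That minimum was 911 UMIs with IgG and 1000 with anti-PD-1, from the medians of whole libraries. Neutrophils were shallower with anti-PD-1, so it left out more of them there. The T cell ratio was 1.02 with at most 5% mitochondrial UMIs. The B cell ratio was 0.843 (0.656 to 1.08) with at least 1000 UMIs. At resolution 0.5 effector CD8 cells had 1.28 and naive T cells 0.138, and CD4 cells had 3.30 with the knockout libraries clustered alone. Thinning to 1000 UMIs also leaves out shallower cells, so both the depth and the cells change. The interferon-gamma median was then 0.40 in neutrophils and 0.27 in P2rx7-led neutrophils, and in tumour cells it was 1.49 without the Lypd8-led cells. The MHC class II median of tumour cells was 0.62 as a mean per cell, 1.30 without the cell holding most UMIs, 0.90 thinned, 0.56 with 10% of UMIs removed as free RNA and 1.30 without immune-led sub-clusters.

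Genes past 1.5-fold numbered 1526 in T cells, 1062 in neutrophils, 1346 in monocytes and macrophages and 2130 in tumour cells. With at least 100 UMIs per gene they were 584, 340, 678 and 909, since fewer genes were tested, and after thinning 2435, 2141, 2761 and 4792, from fewer UMIs and fewer cells.

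Some list medians outside the leading ones changed sign, and the cause was not tested. Large ones were among them, with main values of 2.80 for lung epithelial genes in tumour cells and -2.84 for haemoglobin in monocytes. Haemoglobin in monocytes and macrophages had -2.25. With free RNA removed, type I interferon was -0.075 in T cells and -0.078 in NK cells, MHC class II -1.27 in effector CD8 and -0.27 in NK cells, and lung epithelial genes -5.11 in monocytes and macrophages and -0.11 in tumour cells. Thinned, naive genes were 0.00196 in effector CD8 cells, type I interferon -0.012 in CD4 cells, proliferation -0.020 in NK cells, and haemoglobin 0.27 in neutrophils and 0.89 in Retnlg-led neutrophils. Without the top cell haemoglobin was 0.52 in monocytes and macrophages and 1.38 in monocytes. In tumour cells lipid-associated genes were -0.013 without immune-led sub-clusters and myeloid chemokines -0.033 with at least 100 UMIs.

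Intervals cover counting error alone, and genes under 30 UMIs in both libraries together entered no count or list median.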
